A study of Mus musculus with 4 samples.

Results

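The 10 genes described here belong to Notch signalling and to the choice between absorptive and secretory fate in the gut: the receptors Notch1, Notch2 and Notch3, the ligands Dll1, Dll4, Jag1 and Jag2, and the basic helix-loop-helix (bHLH) transcription factors Hes1, Hes6 and Atoh1. They were taken by name from 22180 genes measured on 4 microarrays. Each gene is given by its probe set annotated to exactly 1 gene symbol, and where there were several, by the one with the highest mean. All 10 had such a probe set on all 4 arrays.

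The arrays compared normal colon and colon tumours of mice with the genotype CDX2; Dmt1+/+/ApcF/+ (wild-type below) or CDX2; Dmt1F/F/ApcF/+ (F/F below), all C57BL/6 and 3 months old. Every group therefore carried ApcF/+ and the CDX2 element, which the labels name without a promoter or other detail, and no group was wild-type for Apc. An F allele is, by the usual notation, one with loxP sites on both sides. Dmt1, with the symbol Slc11a2, encodes an iron importer, and Apc encodes a brake on Wnt signalling that is lost in most colon tumours. Each of the 4 groups was 1 array, while the design text counts 7 wild-type animals and 4 that were F/F. Whether RNA of several animals was pooled, and whether both tissues of a genotype came from the same animals, the labels do not say.

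In the Notch pathway a ligand on one cell binds a receptor on its neighbour, the receptor is cut, and its inner part enters the nucleus and joins the DNA-binding protein Rbpj to switch on target genes such as Hes1. In the intestine Hes1 represses Atoh1, so cells that receive a Notch signal become absorptive, while cells that escape it keep Atoh1, the factor required for goblet, enteroendocrine and other secretory cells, and display ligands to their neighbours. The pathway also acts in blood vessels and in other cells of the gut wall, which are present in whole colon RNA. In such bulk RNA, fewer cells of a type and less RNA per cell cannot be told apart.

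The 4 members with the largest called tumour differences are shown with the 250 bases before their outermost transcription start, from RefSeq (GRCm38.p6), since the bHLH members and Rbpj act at short motifs in such windows. Windows were held for 9 of the 10 members, Hes1 being the exception. Capitals mark matches, on either strand, to CTTTGAT (the TCF/LEF site of Wnt signalling), TGGGAA (Rbpj), CACNAG (the N box bound by Hes proteins), CACGNG (the E box and class C site of Hes and Hey proteins) and CAGCTG (an E box of activating bHLH factors). A CACGAG would count as both CACNAG and CACGNG. The windows lie at chr6:64728875-64729124 on the plus strand for Atoh1, chr1:91414039-91414288 on the minus strand for Hes6, chr3:98013288-98013537 on the plus strand for Notch2 and chr2:26503823-26504072 on the minus strand for Notch1, and all are written 5′ to 3′ towards the start.
Atoh1: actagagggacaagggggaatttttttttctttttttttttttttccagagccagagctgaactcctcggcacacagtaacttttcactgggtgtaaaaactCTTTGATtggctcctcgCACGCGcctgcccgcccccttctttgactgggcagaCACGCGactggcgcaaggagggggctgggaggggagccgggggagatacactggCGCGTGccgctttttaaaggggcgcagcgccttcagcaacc
Hes6: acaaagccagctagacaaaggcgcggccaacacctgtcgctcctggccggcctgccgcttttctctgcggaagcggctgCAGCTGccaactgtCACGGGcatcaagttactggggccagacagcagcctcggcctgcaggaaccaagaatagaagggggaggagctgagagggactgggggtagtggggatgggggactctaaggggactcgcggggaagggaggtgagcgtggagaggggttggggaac
Notch2: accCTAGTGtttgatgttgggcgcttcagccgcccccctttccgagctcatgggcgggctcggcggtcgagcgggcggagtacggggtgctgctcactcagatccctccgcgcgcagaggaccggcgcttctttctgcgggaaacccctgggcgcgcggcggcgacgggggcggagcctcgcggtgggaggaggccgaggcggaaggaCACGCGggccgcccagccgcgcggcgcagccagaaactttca
Notch1: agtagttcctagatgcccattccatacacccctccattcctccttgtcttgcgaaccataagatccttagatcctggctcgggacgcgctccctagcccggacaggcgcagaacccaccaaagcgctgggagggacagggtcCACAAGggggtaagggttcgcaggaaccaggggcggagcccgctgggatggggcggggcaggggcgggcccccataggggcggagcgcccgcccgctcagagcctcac

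The Atoh1 window held 1 CTTTGAT, which began 148 bases before the start, and 3 matches to CACGNG, which started 131, 95 and 41 bases before it. Across 32851 windows of all genes, 3.21% held CTTTGAT, 23.5% held CACGNG at least once and 1.11% held it 3 or more times. In Hes6 there was 1 CAGCTG (in 13% of windows) and 1 CACGNG. Notch2 held 1 CACNAG (in 36.7% of windows) and 1 CACGNG, and Notch1 held 1 CACNAG. No window of a member held TGGGAA, which occurred in 21.6% of all windows. A match describes the letters of the window and does not show that a factor binds there.

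The arrays give log2 signals, so a difference of 1 is 2-fold, and with 1 array a group such a difference has no replicate check. A level of log2 4.67, the median of the gene means, stands in for background, and the 12060 genes that reached it on at least 1 array were tested. Over all 22180 genes, Pearson correlations between arrays were between 0.948 and 0.989 (across genes, which are not independent replicates). The wild-type and F/F arrays had Slc11a2 at 6.51 and 6.13 in normal colon and at 6.64 and 6.19 in tumour, and Apc at 8.53 and 8.70 in normal colon and 8.62 and 8.53 in tumour. Which parts of these genes the probe sets cover was not examined, so neither checks the extent of a deletion. All 9 measured markers of general epithelium reached the background level on every array. All 10 measured markers of intestinal stem and progenitor cells were higher in tumour in both genotypes. Over all 22180 genes, 11076 were higher in the wild-type and 10399 in the F/F tumour. By the model described in the next paragraph 9 of the 10 were called higher in tumour, beside 11% of all tested genes. Markers of position along the colon differed between the pieces: the distal list had a mean level of 5.29 and 4.26 in wild-type and F/F normal colon against 6.15 and 6.13 in the tumours, and the proximal list 6.13 and 6.77 against 4.77 and 4.76. The place each piece was taken from is not given, so position and tumour cannot be told apart in any tumour difference below.

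In tumour, Hes6, Notch2 and Notch1 rose and Atoh1 fell, by a model over all 4 arrays that takes tissue and genotype as additive terms (limma with eBayes, Benjamini-Hochberg adjustment over the 12060 genes at 0.05). Hes6 and Notch2 moved most, with the tumour array 3.49 and 2.61 times the normal array in wild-type mice and 3.38 and 2.54 times in F/F mice. Atoh1 was lower in tumour by a like amount in both genotypes, 1.77-fold and 1.75-fold. It was also higher in F/F than in wild-type mice in both tissues, by 1.75-fold in normal colon and 1.77-fold in tumour, a difference that did not pass the model's test. Jag2 was also called higher in tumour, but it was below background on both normal arrays and its call was lost on rescaling. Notch3 and Dll1 stayed below the background level on every array and were not tested.

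**Figure D1:**
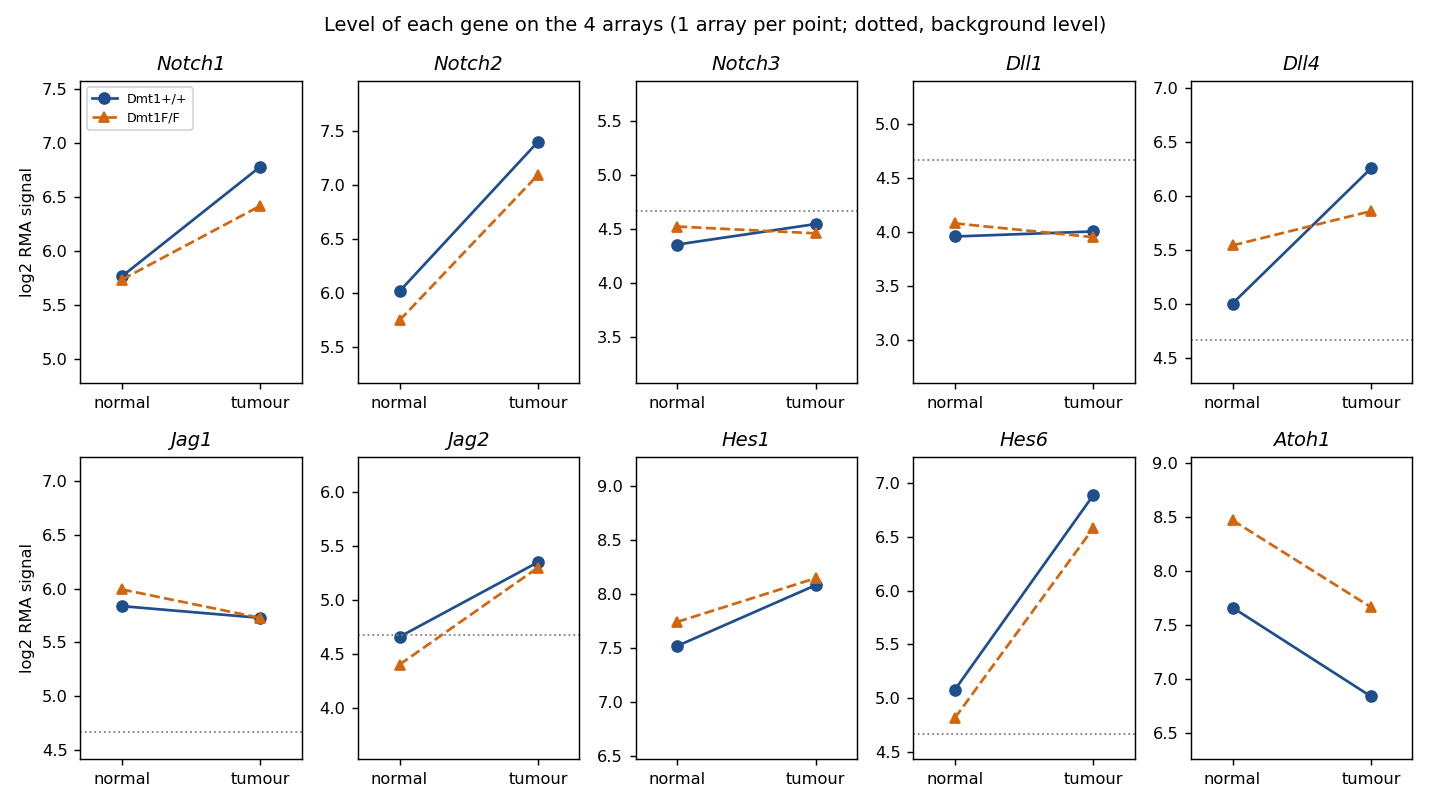
Log2 signal (vertical axis) of the 10 members on each of the 4 arrays, 1 point an array, with the tissue and genotype marked and the background level of 4.67 as a dotted line where the panel's range includes it; panels have different ranges of the same width. Both tumour arrays lie above both normal arrays for Notch1, Notch2, Dll4, Jag2, Hes1 and Hes6, while Notch3 and Dll1 lie under the line throughout.

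The receptors pass the signal into the receiving cell. Notch2 was at 6.01 and 5.74 in normal colon and at 7.40 and 7.09 in tumour, each time with the wild-type array first. Both tumour arrays thus lay more than 1 log2 unit above both normal arrays, with differences of 1.39 in wild-type and 1.35 in F/F mice. The modelled tumour difference was 1.37 (SE 0.12, 95% interval 1.04 to 1.69, limma adjusted p = 0.0108). Of the 12060 genes, 253 (2.10%, Notch2 included, as in the like counts below) were as high in tumour in both genotypes.

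Notch1, the receptor most studied in intestinal fate choice, was at 5.77 and 5.74 in wild-type and F/F normal colon and at 6.78 and 6.42 in the tumours. The normal arrays were nearly level and both tumour arrays were above them, by 1.02 in wild-type and 0.68 in F/F mice. In the model the difference was 0.85 (SE 0.15, 95% interval 0.45 to 1.25, limma adjusted p = 0.0304), and 879 genes (7.29%) were as high in both genotypes. Notch3, known from pericytes and smooth muscle of vessels, was at 4.36 and 4.52 in normal colon and 4.55 and 4.46 in tumour, wild-type first. All 4 values were under the background level, so neither the size nor the direction of its differences can be read. The 12 pericyte and smooth muscle markers were at a mean level of 8.26 and 7.82 in normal colon and 6.96 and 7.47 in tumour, in wild-type and F/F mice, of which 11 were tested. Only 1 of the 12 was higher in tumour in each genotype, beside 11076 and 10399 of all 22180 genes in wild-type and F/F mice. List medians were -1.55 in wild-type and -0.40 in F/F mice. At 2-fold or more, 8 and 0 of the 12 were lower, beside 5.31% and 3.81% of tested genes. The limma counts that follow stand beside 8.23% of tested genes that fell and 11% that rose, so they do not set the list apart. By limma 1 of the 11 fell, the pericyte gene Rgs5 (by 1.33, SE 0.25, adjusted p = 0.0341). Another 1 rose, the receptor gene Pdgfrb (0.63, SE 0.13, limma adjusted p = 0.0422), which was named after its value was seen.

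Jag2 was the 1 ligand called by the model, with limits. It was at 4.66 and 4.40 in wild-type and F/F normal colon, both under the background level, and at 5.35 and 5.30 in the tumours. It was thus tested because of its tumour arrays, and its differences of 0.69 and 0.90 subtract values that cannot be told from background, so their sizes are uncertain. The model gave 0.80 (SE 0.18, 95% interval 0.31 to 1.28, limma adjusted p = 0.0491; 0.0473 with no filter on level), a call that was lost when the arrays were rescaled (adjusted p = 0.0639 with each array centred on its median, 0.0628 with quantile normalization and 0.0533 with cyclic loess).

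Dll4, a ligand of intestinal crypts and of sprouting vessels, was at 5.003 and 5.54 in normal colon and 6.26 and 5.86 in tumour, wild-type first. Both tumour arrays were above both normal arrays, but the tumour difference was 1.25 in wild-type and 0.32 in F/F mice. The model gave 0.78 (SE 0.26, limma adjusted p = 0.104). Between genotypes the F/F array was higher by 0.54 in normal colon and lower (-0.40) in tumour. The tumour difference was lower in F/F than in wild-type mice by -0.93, and 1.79% of the genes had a difference between genotypes as low; with 1 array a group it could not be tested. A second Dll4 probe set, annotated to 2 symbols and not used, was at 4.37 and 4.04 in normal colon and 4.49 and 4.17 in tumour, all below background.

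Some blood vessel markers rose in tumour beside the receptors. Of 14 endothelial markers, 9 were tested and 3 rose by limma, beside 11% of all tested genes. These were the endothelial cadherin Cdh5 (1.19, limma adjusted p = 0.0149), the coreceptor Eng (0.84, adjusted p = 0.0274) and the phosphatase Ptprb (0.64, adjusted p = 0.0472). The median difference of all 14, tested or not, was 0.24 in wild-type and 0.64 in F/F mice. Mean levels of the list were 4.75 and 4.66 in normal colon and 5.09 and 5.22 in tumour. The part of endothelium in the differences of Dll4, Notch1 and Notch2 was not tested.

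Jag1 and Dll1 showed no called difference. Jag1, a ligand with roles in several tissues, was at 5.84 and 5.99 in wild-type and F/F normal colon and at 5.73 on both tumour arrays. The tumour arrays were lower by little (-0.11 and -0.26), and the model gave -0.19 (SE 0.14, 95% interval -0.55 to 0.18, limma adjusted p = 0.373). Dll1, a ligand displayed by secretory precursors, was at 3.96 and 4.08 in normal colon and 4.01 and 3.95 in tumour, wild-type first. Its other probe set was at 3.66, 3.67, 3.50 and 3.43, so both lay under background everywhere.

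Among the 3 bHLH members, Hes1 acts downstream of the receptors, and Atoh1 is held in check by Hes1. Hes6, a factor that is not itself a Notch target and is known to oppose Hes1, was at 5.08 and 4.82 in normal colon and 6.88 and 6.58 in tumour, wild-type first. Both tumour arrays stood more than 1 log2 unit above the normal arrays, by 1.80 in wild-type and 1.76 in F/F mice. The model gave 1.78 (SE 0.13, 95% interval 1.42 to 2.14, limma adjusted p = 0.00813), and 137 genes (1.14%) were as high in both genotypes.

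Hes1, the main Notch target that represses Atoh1, was at 7.52 and 7.74 in wild-type and F/F normal colon and at 8.08 and 8.14 in the tumours. Both tumour arrays were higher, by 0.56 and 0.40, without overlap with normal colon. The modelled 0.48 (SE 0.12, 95% interval 0.17 to 0.80) missed the threshold with a limma adjusted p of 0.0567. It passed with quantile normalization (adjusted p = 0.0480) and with genes kept from log2 6 upwards (adjusted p = 0.0478).

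Atoh1 was at 7.66 and 8.47 in wild-type and F/F normal colon and at 6.84 and 7.66 in the tumours. The F/F tumour thus had the level of wild-type normal colon, and the tissues overlapped, although within each genotype the tumour was lower (-0.82 in wild-type and -0.81 in F/F mice). The model gave -0.81 (SE 0.11, 95% interval -1.12 to -0.51, limma adjusted p = 0.0212), and 497 genes (4.12%) were as low in tumour in both genotypes. With the genotype term left out, the same difference had an SE of 0.37 and a limma adjusted p of 0.179, which ended the call.

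**Figure D2:**
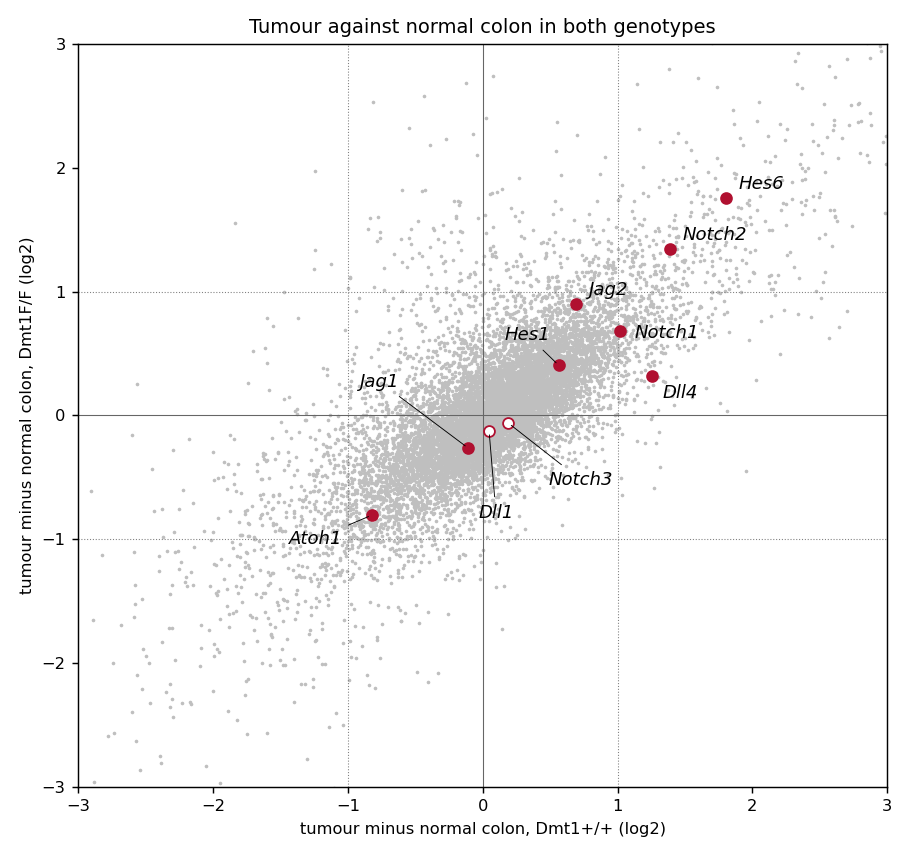
Log2 difference of tumour minus normal colon in wild-type mice (horizontal axis) against the same difference in F/F mice (vertical axis), for the members (red; open where below background on every array) and all tested genes (grey; 111 genes beyond the frame are not drawn), with dotted lines at 2-fold. Hes6 and Notch2 lie beyond 2-fold on both axes, and Dll4 lies at 1.25 on the horizontal and 0.32 on the vertical axis.

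At 2-fold or more, 4 of the 10 members (Notch1, Notch2, Dll4 and Hes6) were higher in the wild-type tumour, where the share over the tested genes was 6.56%, and none was lower (5.31% of genes). In F/F mice 2 members (Notch2 and Hes6) were higher against 5.98% of genes, and none was lower against 3.81%. By the model 11% of genes rose and 8.23% fell, and 4 of the 10 members were called higher and 1 lower. Since Jag2 was tested through its tumour arrays alone, nothing is read from that count. Without overlap between tissues, 6 members were higher in both tumours against 40.1% of genes, and 1 (Jag1) was lower in both against 29.2%, so separation of the arrays is common among all genes. The median difference of the 10 members was 0.63 in wild-type and 0.36 in F/F mice, beside 0.00 and -0.03 over all 22180 genes. The members were chosen with earlier results of these data known, so nothing is read from these medians either. The additive model has 1 residual degree of freedom, from the agreement between 2 pairs of arrays. Its p-values rest more on the spread pooled across genes by eBayes, which has 3.4 prior degrees of freedom.

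**Figure D3:**
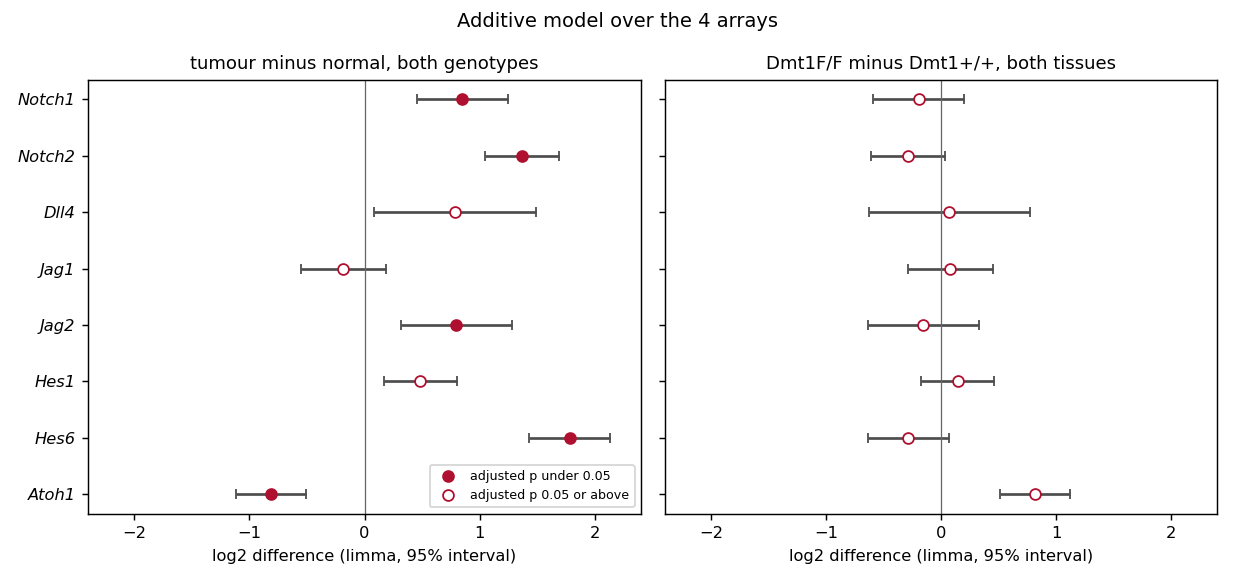
Modelled log2 differences with 95% intervals (limma) for the 8 tested members, tumour minus normal colon on the left and F/F minus wild-type on the right; filled points have an adjusted p under 0.05. Filled points are Notch1, Notch2, Jag2, Hes6 and Atoh1 on the left, and no point is filled on the right.

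Other genes of the pathway were looked at in the same way. Of 56 other Notch pathway genes 53 were measured and 39 tested. By limma 4 of these rose and 2 fell in tumour, beside 11% and 8.23% of all tested genes, so the counts do not set the pathway apart. Those that rose were the ubiquitin ligase Dtx4 (1.12, SE 0.12, adjusted p = 0.0153), the glycosyltransferase Lfng, which modifies Notch receptors (0.93, SE 0.16, adjusted p = 0.0298), the nuclear coactivator Maml2 (0.84, SE 0.14, adjusted p = 0.0296) and the ubiquitin ligase Nedd4 (0.59, SE 0.10, adjusted p = 0.0273). Aph1a, a subunit of the protease that releases the inner part of the receptor, fell by 0.53 (SE 0.11, adjusted p = 0.0385). Nrarp, a Notch target that limits Notch activity, was at 5.39 and 5.90 in normal colon and 4.76 and 5.13 in tumour, in wild-type and F/F mice, and fell by 0.70 (SE 0.16, adjusted p = 0.0473).

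Target genes of the pathway thus did not share one direction. Rbpj, the DNA-binding partner of the receptors, was at 6.94 and 6.95 in normal colon and 7.40 and 7.41 in tumour, a modelled 0.46 with a limma adjusted p of 0.0619. The target Hey1 was at 5.002 and 4.73 in normal colon and 5.41 and 4.80 in tumour (0.24, adjusted p = 0.398), and Heyl at 4.55 and 4.78 in normal colon and 4.45 and 4.25 in tumour (-0.32, adjusted p = 0.369). Notch4, the receptor of vessels, was at 4.95 and 5.05 in normal colon and 5.50 and 5.21 in tumour (0.35, adjusted p = 0.229). Olfm4, a Notch target of the small intestine, was between 2.93 and 3.33 and below background on every array. Median differences in wild-type and F/F mice were 0.22 and 0.05 over the 53 other pathway genes, and 0.01 and -0.03 over the 14 measured target genes among them.

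Other factors of secretory fate fell or rose according to the factor. Of 26 listed, 24 were measured and 15 tested, and 3 rose and 2 fell by limma, beside 11% and 8.23% of all tested genes. Spdef, which drives goblet cell maturation downstream of Atoh1, was at 7.23 and 7.69 in wild-type and F/F normal colon and 5.95 and 6.14 in tumour, and fell by 1.41 (SE 0.14, adjusted p = 0.0120). Klf4, a factor of goblet and surface cells, fell by 1.16 (adjusted p = 0.0460). The factors that rose were Sox4 (2.61, adjusted p = 0.00641), the endocrine and mesenchymal factor Isl1 (2.10, adjusted p = 0.0206) and the progenitor factor Sox9 (1.16, adjusted p = 0.0448), of which Sox4 and Sox9 are also Wnt-linked genes of crypt progenitors. Ascl2, a stem cell factor below background on all but the wild-type tumour array, differed by 1.57 (adjusted p = 0.0590). Gfi1, an Atoh1 target, was at 4.95 and 5.27 in normal colon and 4.95 and 5.04 in tumour (-0.11, adjusted p = 0.661), and the endocrine factor Neurog3 was below background on every array.

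Markers of differentiated cells fell or rose in tumour according to the cell type. The counts below stand beside 11% of all tested genes that rose and 8.23% that fell by limma. Of 14 goblet markers 4 fell, namely Retnlb (-2.78, limma adjusted p = 0.0474), Galnt12 (-1.21, adjusted p = 0.0149), Tpsg1 (-1.21, adjusted p = 0.0212) and Agr2 (-0.68, adjusted p = 0.0361), while the main goblet mucin Muc2 was at 12.36 and 12.30 in normal colon and 12.06 and 12.15 in tumour (-0.23, adjusted p = 0.155). Enteroendocrine markers fell in 9 of 12 tested and rose in 1, led by Sst (-2.20, adjusted p = 0.0109), Pcsk1 (-1.82, adjusted p = 0.0117) and Chgb (-1.72, adjusted p = 0.00891). Markers of Paneth cells, secretory cells of the small intestine, rose in 4 of 7 and fell in 0, among them the lysozyme Lyz1 (4.74, adjusted p = 0.00398) and the protease Mmp7 (3.22, adjusted p = 0.00349). Of 5 tested tuft cell markers 1 rose, Avil (2.87, adjusted p = 0.0119), and 0 fell. Avil was below background on both normal arrays, so it was tested through its tumour arrays and its size is uncertain. For Paneth cells 5 of 7 markers reached background on each normal array, and 7 and 6 on the wild-type and F/F tumour arrays. For enteroendocrine cells 12 of 14 did on each normal array, and 8 and 10 in tumour. Genes tested through 1 tissue have uncertain sizes, so nothing is read from the Paneth, enteroendocrine and tuft counts. Absorptive colonocyte markers fell in 8 of 14, and of 9 measured genes listed with absorptive fate 6 fell. Cdx2, an identity factor of the intestine, was lowest (-2.33, adjusted p = 0.00715), followed by Hnf4g and Ptk6 (both -1.34, adjusted p = 0.0109 and 0.0244). The median tumour differences in wild-type and F/F mice were -0.70 and -0.29 for goblet cells, -1.39 and -0.91 for enteroendocrine cells, 3.15 and 3.30 for Paneth cells, -0.32 and -0.25 for tuft cells and -1.87 and -0.59 for colonocytes. Atoh1's differences of -0.82 and -0.81 stand beside them, and the part of changed shares of secretory cells in its fall was not tested.

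**Figure D4:**
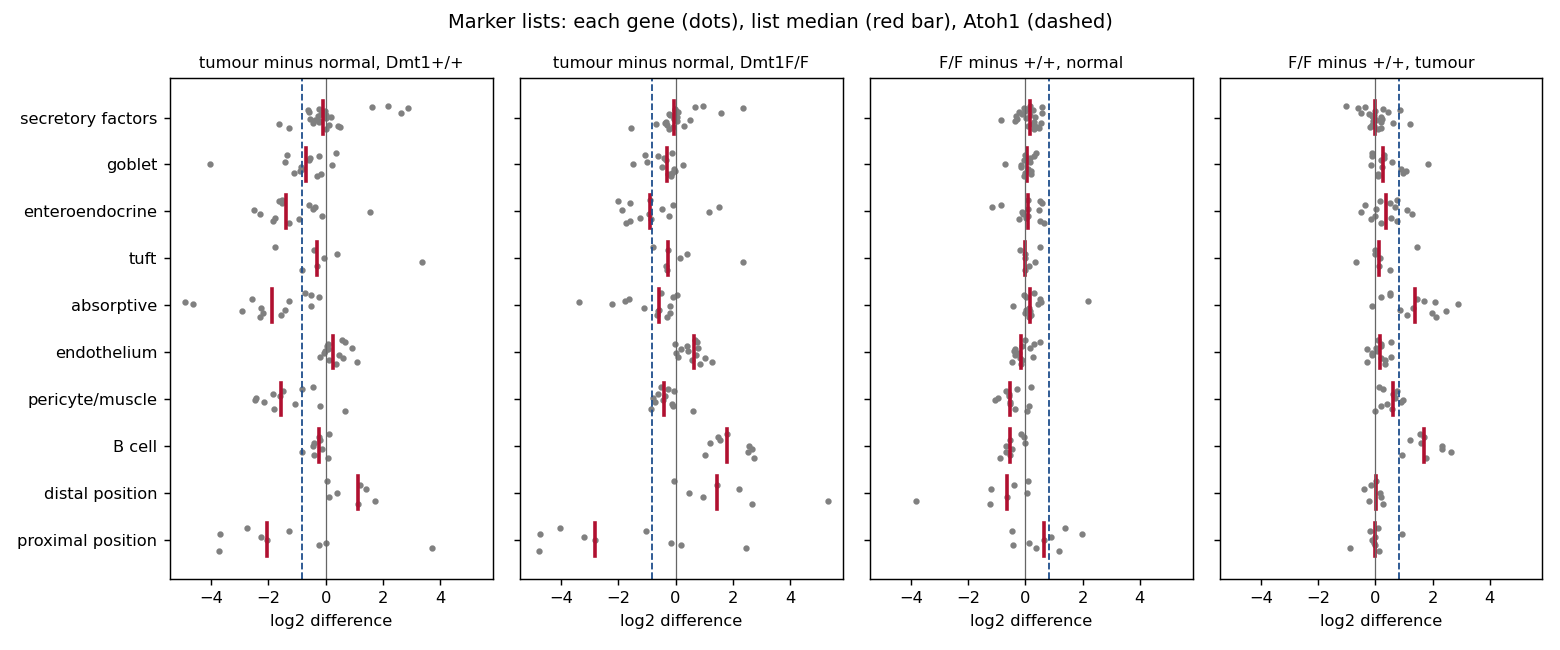
Log2 differences (horizontal axis, the same scale in each panel) of the genes of 10 lists in the 4 comparisons, with each gene as a dot, the list's median as a red bar and Atoh1's difference as a dashed line. Other lists are not drawn, among them the Paneth list, with median tumour differences of 3.15 in wild-type and 3.30 in F/F mice. In the tumour comparison of genotypes on the right, the medians of the colonocyte (1.38) and B cell (1.69) lists lie right of Atoh1 (0.83), and those of both position lists lie at 0.02 and -0.02.

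Wild-type and F/F mice were compared to ask whether the genes differed with Dmt1 genotype. No member differed by 2-fold or more in normal colon, where 0.713% of genes were higher and 0.904% lower, or in tumour, where 1.7% were higher and 0.506% lower. By limma no gene was called for genotype (0% in either direction), while 991 of 12060 genes had an unadjusted p under 0.05, Atoh1 among them as the 1 member. In all alternative settings the count of called genes was also 0.

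Atoh1 had the largest genotype differences among the members, 0.81 in normal colon and 0.83 in tumour. Both F/F arrays lay above both wild-type arrays, though F/F tumour and wild-type normal colon met at 7.66. Among the tested genes, 9.59% had both F/F arrays above both wild-type arrays and 6.01% had them below. The modelled difference was 0.82 (SE 0.11, 95% interval 0.51 to 1.12, limma adjusted p = 0.506, higher in 2 of 2 F/F arrays). The smallest adjusted p of any gene was also 0.506, and other genes, Cdx2 and Nr1d1 among them, shared it, so it does not set Atoh1 apart. Of the tested genes, 34 (0.282%) were as high in F/F mice in both tissues. The tumour difference of Atoh1 was the same in both genotypes to within 0.02.

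Values of other lists varied beside it. In normal colon the proximal position list was higher in F/F mice by a median of 0.66 and the distal list lower (-0.63), and in tumour their medians were -0.02 and 0.02. Goblet markers had genotype medians of 0.05 in normal colon and 0.26 in tumour, enteroendocrine markers 0.09 and 0.37, and Paneth markers -0.95 and -0.55. Medians were 0.17 and -0.01 for secretory fate factors and 0.15 and 1.38 for colonocyte markers. Pericyte and smooth muscle markers had medians of -0.55 in normal colon and 0.61 in tumour. Genes listed with absorptive fate were higher in F/F mice in 8 of 9 in each tissue, with medians of 0.30 and 0.45. Over all 22180 genes, 11953 were higher in F/F mice in normal colon and 10544 in tumour. By limma 6 of the 9 had an unadjusted p under 0.05 for genotype, beside 991 of the 12060 tested genes, while none passed adjustment. B cell markers, which mark lymphoid tissue, had a mean level of 4.49 and 4.04 in normal colon and 4.22 and 6.00 in tumour, wild-type first. All 9 of 9 measured were higher in the F/F than in the wild-type tumour. Background was reached by 4 and 2 of the 9 in normal colon and by 2 and 8 in tumour, wild-type first, so the size of that difference is uncertain. The part of position and of these cells in the genotype differences was not tested.

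The other members differed less between genotypes. Notch2 was lower in F/F mice by -0.27 in normal colon and -0.31 in tumour (modelled -0.29, 95% interval -0.61 to 0.04, limma adjusted p = 0.646), and Hes6 by -0.26 and -0.31 (-0.28, 95% interval -0.64 to 0.07, adjusted p = 0.652). Notch1 differed by -0.03 in normal colon and -0.36 in tumour, and Jag2 by -0.26 and -0.05. Hes1 was higher in F/F mice by 0.22 and 0.06 (0.14, 95% interval -0.17 to 0.46, adjusted p = 0.792). Adjusted p-values of the 8 tested members lay between 0.506 and 0.960. The intervals reach -0.64 for Hes6 and 0.46 for Hes1, so like levels in the genotypes were not shown.

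**Figure D5:**
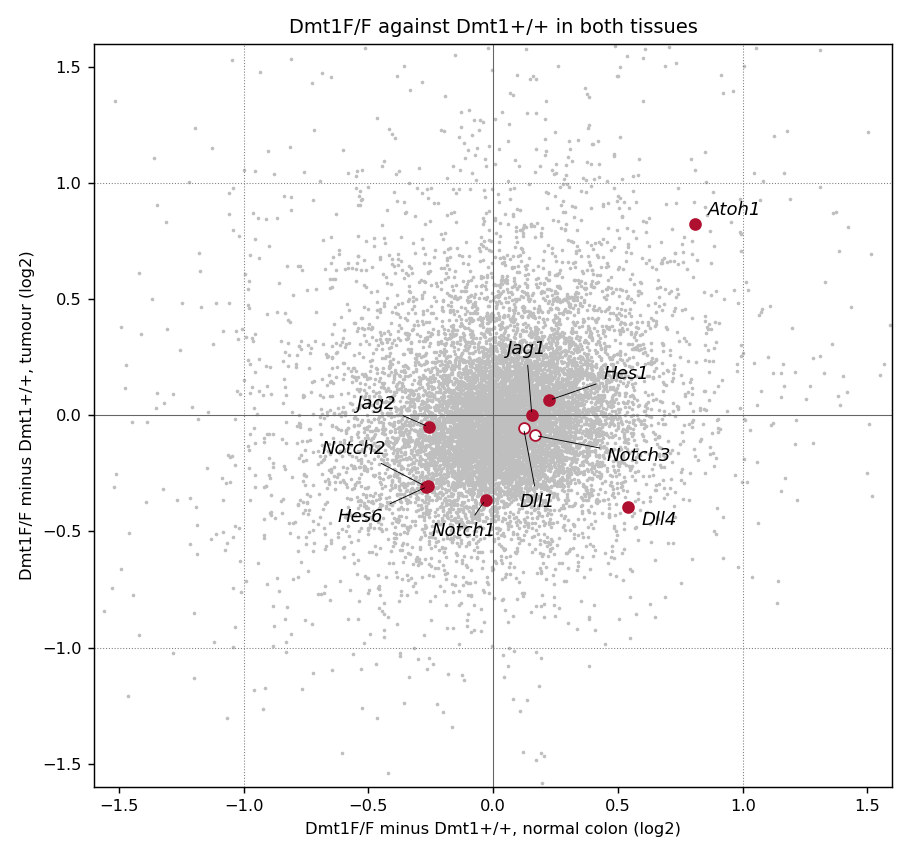
Log2 difference of F/F minus wild-type mice in normal colon (horizontal axis) against that in tumour (vertical axis), for the members (red; open where below background on every array) and all tested genes (grey; 88 genes beyond the frame are not drawn), with dotted lines at 2-fold. Atoh1 lies at 0.81 and 0.83, Notch2 and Hes6 lie together below 0 on both axes, and Dll4 lies at 0.54 and -0.40.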

How the data were processed

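The values are log2 signals of probe sets, as deposited by the authors and made with oligo and RMA per the submitters' processing notes (no versions given). RMA gives the arrays a common intensity distribution, so differences in total signal are lost, and it leaves no error for a single value. Total RNA was extracted with Trizol and labelled for an Affymetrix whole-transcript array, per the labels' protocols. The sources used here name no genome build.

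Of 41345 probe sets, the platform annotation gave 23521 exactly 1 gene, 1814 several and 16010 none; 23328 gene IDs matched RefSeq (GRCm38.p6). Of 22180 genes, 1082 had several probe sets. A gene was tested if its highest array reached log2 4.67, which left 12060. Differences of 2 arrays have no test. Limma (version 3.58.1, R 4.3.3) was fitted with additive terms for tissue and genotype, trended eBayes (prior degrees of freedom 3.4, residual 1) and Benjamini-Hochberg adjustment at 0.05, and tested on simulated data. Nothing says that arrays are separate animals within a group. The p-values use the spread between these arrays, moderated across genes, and do not measure the spread between animals.

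The members and lists were chosen with earlier results of these data known. Named from each other list were at most 5 tested genes with the largest mean tumour difference, plus Slc11a2, Apc, Notch4, Rbpj, Hey1, Heyl, Nrarp, Olfm4, Lfng, Spdef, Neurog3, Gfi1, Sox9 and Muc2. Alternatives were 3 rescalings, mean of probe sets, 2 level filters, eBayes without trend, the tested term alone and a 1.5-fold threshold.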

Additional observations from a re-analysis of the deposited data

Results flagged for a closer look

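Each gene below differed in opposite directions in the 2 genotypes or in the 2 tissues. With 1 array a group the difference between the 2 effects was not tested in any case, and opposite signs of small values are common.

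Among the members, Dll4 was higher in F/F than wild-type mice in normal colon (0.54) and lower in tumour (-0.40), so that the genotype differences in tumour and normal colon differed by -0.93. Notch3 was higher in tumour in wild-type mice (0.19) and lower in F/F mice (-0.06), a gap of -0.25, and its genotype difference changed sign by the same amount, 0.17 in normal colon and -0.09 in tumour. Dll1 had a gap of -0.17, with tumour differences of 0.05 and -0.13 and genotype differences of 0.12 and -0.05. Notch3 and Dll1 were below background on every array.

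Genotype differences of other Notch genes also changed sign from normal colon to tumour, with gaps of -0.39 for Lfng, -0.38 for Notch4 and -0.43 for Heyl, which reached background on 1 array. Crypt and fate factors had larger gaps: -0.94 for Sox9, -1.05 for Isl1 and -1.19 for Ascl2. Sox9 was higher in F/F normal colon and lower in F/F tumour. Isl1 was below background on the wild-type normal array and Ascl2 on all but the wild-type tumour array, so the gap of Isl1 is uncertain in size, and Ascl2 has no readable direction in normal colon. The tuft marker Avil, below background on both normal arrays, had a gap of -1.002. Neurog3, below background, had a gap of 0.52. Goblet genes went the other way, with 2.56 for Retnlb, 0.38 for Agr2, 0.30 for Galnt12 and 0.15 for Muc2, and so did the vessel genes Rgs5 (0.95) and Ptprb (0.11), while Pdgfrb had -0.070. The tumour difference of Gfi1 was 0.00 in wild-type and -0.23 in F/F mice, a gap of -0.23, and that of Apc was 0.10 and -0.17, a gap of -0.27 that its genotype difference shared.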

How the results depend on the processing

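No paired analysis was possible because each group was 1 array and the labels carry no replicate numbers. Without any 1 array the model has no residual degree of freedom, so no array was left out. No member's difference reversed under any alternative that gave a value. At a 1.5-fold threshold, 5 members were called in the F/F tumour against 2 at 2-fold, and 1 member each in the genotype comparisons of normal colon and tumour against 0. Genes called at 1.5-fold numbered 2055 higher and 1546 lower for the wild-type tumour, 1764 and 1269 for the F/F tumour, 449 and 482 for genotype in normal colon and 646 and 347 in tumour. With tissue alone in the model, 651 genes fell against 992. Centring each array on its median moved the median wild-type tumour difference of the tested genes from 0.08 to -0.04, the share of higher genes among those called at 2-fold from 55.3% to 43.7% there and from 44.1% to 34.1% for genotype in normal colon, and the share that rose among limma's tissue calls from 57.3% to 45.2%. Notch1 then fell short of 2-fold in wild-type mice, leaving 3 members, as with quantile normalization and cyclic loess. Limma's adjusted p for the tumour difference ranged from 0.00563 to 0.0161 for Hes6, 0.00779 to 0.0203 for Notch2, 0.0251 to 0.0452 for Notch1, 0.0431 to 0.0639 for Jag2, 0.0478 to 0.0852 for Hes1, 0.0822 to 0.140 for Dll4 and 0.0150 to 0.179 for Atoh1. With no filter on level, the tumour differences of Notch3 (0.06) and Dll1 (-0.04) had adjusted p = 0.855 and 0.910. The cause of these changes was not tested. The number of arrays limits every value, and no value near log2 4.67 can be told from background.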

Other observations

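The 34 genes that were as much higher in F/F mice as Atoh1 in both tissues (Atoh1 included) were looked through, and the genes named here were chosen after their values were seen. They included Cdx2, at 7.78 and 8.70 in wild-type and F/F normal colon and 5.22 and 6.61 in the tumours. Neurl1b, a ubiquitin ligase that acts on Notch ligands, was at 5.91 and 6.87 in normal colon and 4.90 and 5.73 in tumour. Dbp and Nr1d1, genes of the circadian clock's output and feedback, were among them too. Dbp was higher in F/F mice by 1.05 in normal colon and 1.58 in tumour, and Nr1d1 by 1.31 and 1.57. The labels give no time of day for tissue collection. Creb3l1, a transcription factor of secretory cells, was higher by less, 0.56 and 0.61. None of these genes passed limma's test for genotype.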
